A study of Bos taurus with 22 samples.

Results

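The transcripts of MKI67, TOP2A, BIRC5 and TPX2, which encode proteins of mitotic chromosomes and of the mitotic spindle, were followed in circulating white blood cells of 22 heifers. Of 7 candidate genes, these 4 carry a symbol in the rows of the study's supplementary results used here and were matched by Ensembl identifier to the table of 27607 genes. NUSAP1, CENPE and CENPF were not analysed here. The rows in hand are those with the smallest fertility p-values of the study's own test, so the contrast of Fertile and Sub-Fertile heifers chose the genes, and its values are given below as a description without a test.

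The study enrolled purebred heifers of a beef breed and of a dairy breed, bled from the jugular vein at their first artificial insemination after synchronization of estrus with gonadotropin-releasing hormone, a progesterone device and prostaglandin. Angus heifers averaged 14 months of age and carried the device for 7 days, and Holstein heifers averaged 12 months and carried it for 5 days. Among the 12 Angus heifers 7 were Sub-Fertile and 5 Fertile, and the 10 Holstein heifers held 5 of either kind, each heifer giving 1 library of messenger RNA. Fertile heifers of either breed calved from the first service, while Sub-Fertile was defined by breed, as no pregnancy after 2 inseminations and a bull in Angus and as a need for at least 4 inseminations in Holstein heifers.

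Cells divide by copying their DNA and then pulling the copies apart on a spindle of microtubules. Ki-67, the product of MKI67, coats the surface of mitotic chromosomes and keeps them apart from each other, and it is widely used as a marker of cycling cells. DNA topoisomerase II alpha, from TOP2A, untangles sister DNA molecules. Survivin, from BIRC5, is a subunit of the chromosomal passenger complex, which corrects the attachment of chromosomes to the spindle, and TPX2 activates Aurora kinase A and promotes the growth of microtubules around chromosomes. Transcripts of all these genes build up between DNA replication and mitosis and are scarce in resting cells. Most white blood cells, mature neutrophils among them, no longer divide, and activated lymphocytes are among the blood cells known to cycle.

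Libraries held between 12182400 and 49228035 counts (median 23158374), and 13535 genes passed the filter on low values, all 4 mitotic genes among them. Across the series, 8 pairs of heifers lay closer to each other than any other pairing, with a biological coefficient of variation between 2 libraries of 0.0377 to 0.0828 against 0.0980 to 0.260 in the other 223 pairings. None of the 8 pairs lay within a group of breed and fertility (0 pairs), 6 mixed the fertility classes and 4 mixed the breeds, and no 2 libraries were identical. The sources used here name no pairing, so each heifer was kept as 1 sample, and results are given with and without the pair that stood apart, Holstein Fertile heifer 10 and Angus Fertile heifer 18. Of the marker genes of blood cells that carry a name here, CSF3R of neutrophils had a mean of 283 CPM (counts scaled to the total counts of the library) and BANK1 of B cells a mean of 352 CPM. Markers of T cells, natural killer cells, monocytes, neutrophil precursors and red cell precursors have no named gene here and were not checked.

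Over the 22 heifers MKI67 had a mean of 406 ± 186 CPM (SD, n = 22). TOP2A had a mean of 97.5 ± 39.5 CPM (SD, n = 22), TPX2 of 56.3 ± 19.9 CPM (SD, n = 22) and BIRC5 of 23.5 ± 9.18 CPM (SD, n = 22). A long transcript yields more fragments than a short one, so levels of different genes were compared per kilobase of the transcript length listed in the study's annotation. On that scale the means were 34.6 ± 15.9 for MKI67, 19.4 ± 6.86 for TPX2, 17.95 ± 7.27 for TOP2A and 14.1 ± 5.51 for BIRC5 (CPM per kilobase, SD, n = 22). The level per kilobase of MKI67 was above that of each other gene in 22 of 22 heifers, TPX2 was above TOP2A in all but 2 heifers, and TOP2A was above BIRC5 in 21 of 22. The order of TPX2 and TOP2A was thus turned by length, and these neighbours differed by less than the spread between heifers.

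Counts were deep enough for the differences between heifers to exceed counting error. The lowest count in any heifer was 2909 for MKI67, 797 for TOP2A, 457 for TPX2 and 196 for BIRC5. The counting error of these lowest counts was 1.85%, 3.54%, 4.68% and 7.14% of the value, against coefficients of variation between heifers of 45.9%, 40.5%, 35.3% and 39.1%. These errors cover counting alone.

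In build ARS-UCD1.2, MKI67 (ENSBTAG00000002444) spans 47507654 to 47537887 of chromosome 26. In Angus Sub-Fertile heifers its lowest, median and highest values were 263, 344 and 432 CPM. Angus Fertile heifers 18, 19, 20, 21 and 22 had 895, 406, 229.7, 395 and 392 CPM. Heifer 18 stood above every other Angus heifer, and heifer 20 had the lowest value of the 22. Holstein Sub-Fertile heifers 1 to 5 had 284, 467, 379.5, 352 and 340.2 CPM, and Holstein Fertile heifers 6 to 10 had 248, 235, 456, 470.1 and 971 CPM. Heifer 10 was the highest of all, while heifers 6 and 7 of the same group were below every Sub-Fertile heifer of either breed, so that the Fertile groups enclosed the range of the Sub-Fertile groups.

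TOP2A (ENSBTAG00000019262) lies on chromosome 19 from 40627306 to 40653433. Its lowest, median and highest values were 63.0, 84.3 and 108 CPM in Angus Sub-Fertile heifers. It was at 203, 86.3, 53.1, 80.7 and 98.2 CPM in Angus Fertile heifers 18 to 22. Again heifer 18 was far above its group and heifer 20 below it. In Holstein Sub-Fertile heifers 1 to 5 it was at 77.9, 103, 94.4, 89.7 and 87.1 CPM, the narrowest of the 4 groups for this gene (SD 9.39 CPM, n = 5). Holstein Fertile heifers 6 to 10 had 59.8, 64.3, 113, 139 and 205 CPM, and they too enclosed the Sub-Fertile heifers of their breed.

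BIRC5 (ENSBTAG00000013573), on the same chromosome from 53940667 to 53947960, was the scarcest of the 4. Angus Sub-Fertile heifers had a lowest, median and highest value of 16.1, 20.8 and 23.7 CPM, and Angus Fertile heifers 18 to 22 had 46.6, 22.6, 13.8, 26.8 and 20.7 CPM. The 4 Angus Fertile heifers other than 18 spanned the Sub-Fertile range of their breed. Values were 17.9, 29.2, 22.3, 22.3 and 19.4 CPM in Holstein Sub-Fertile heifers 1 to 5, and 14.6, 15.8, 24.0, 32.9 and 48.8 CPM in Holstein Fertile heifers 6 to 10.

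TPX2 (ENSBTAG00000018775) lies on chromosome 13 from 61285805 to 61340092. It was at 41.6, 46.7 and 62.9 CPM (lowest, median and highest) in Angus Sub-Fertile heifers and at 107, 51.4, 38.5, 56.0 and 55.7 CPM in Angus Fertile heifers 18 to 22. Holstein Sub-Fertile heifers 1 to 5 had 43.5, 66.4, 52.3, 52.0 and 50.3 CPM, and Holstein Fertile heifers 6 to 10 had 35.9, 36.9, 61.6, 71.0 and 114 CPM. All 4 genes therefore showed the same picture, with the highest values in heifers 10 and 18 and the lowest in heifer 20 (heifer 6 for TPX2), and with groups that overlapped for every gene. In RefSeq's annotation of ARS-UCD2.0, 0 other genes overlap any of the 4, but the sources used here do not say whether fragments were counted by strand.

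**Figure D1:**
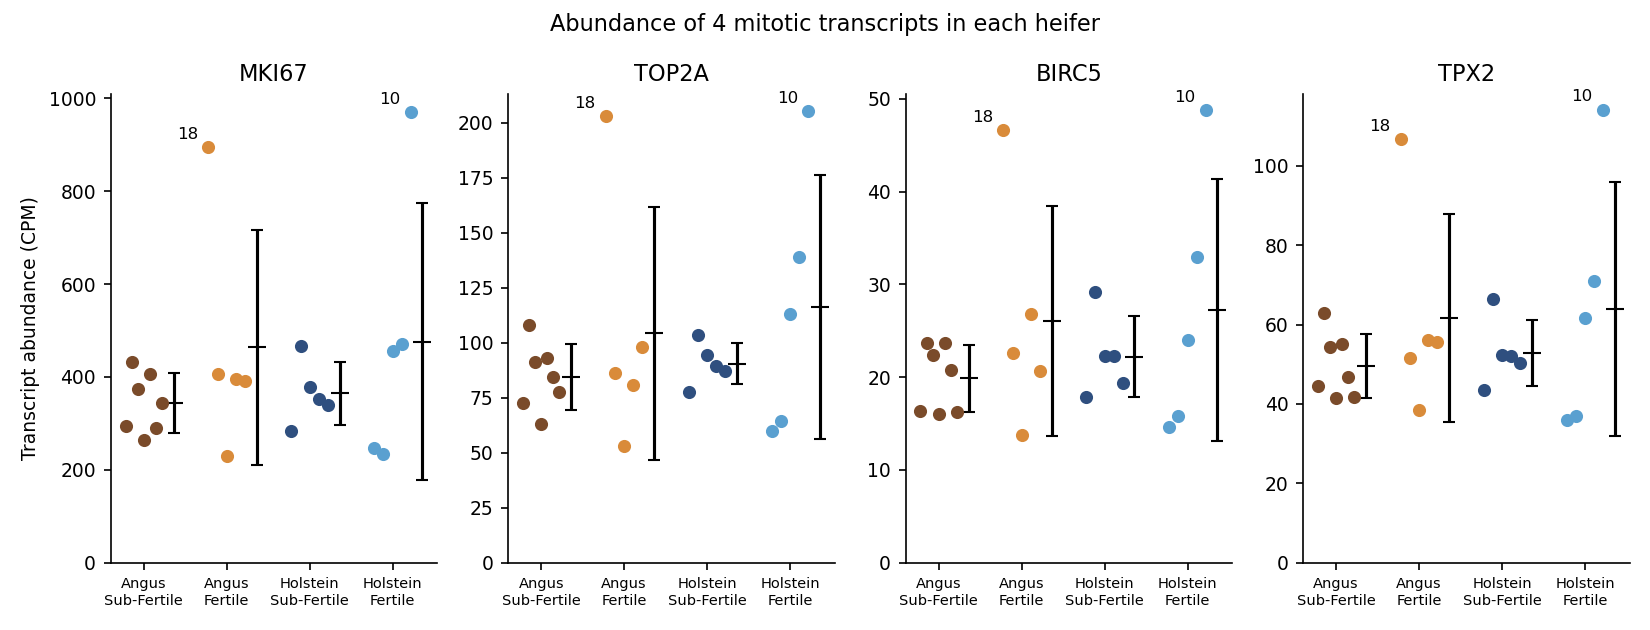
Transcript abundance (CPM, y axis from 0) of MKI67, TOP2A, BIRC5 and TPX2 in each of the 22 heifers (points) by group (x axis), with the mean and SD of each group in black. Heifers 18 (Angus Fertile) and 10 (Holstein Fertile) are labelled and lie above all others in each panel, at 895 and 971 CPM for MKI67, where the other 20 heifers lie between 229.7 and 470.1 CPM.

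The 4 transcripts rose and fell together from heifer to heifer. Pearson's r between the log2 CPM of any 2 of them was 0.952 (TOP2A and BIRC5) to 0.980 (MKI67 and TPX2) over 22 heifers. Without heifers 10 and 18 it was between 0.891 and 0.946 over 20 heifers. These values describe the heifers at hand. Each pair of values came from the same library, close pairs of heifers are not independent, and no p-value is given. Heifer 10 ranked 1, heifer 18 ranked 2 and heifer 9 ranked 3 for each of the 4 genes, and Holstein Sub-Fertile heifer 2 ranked 4 for all but TOP2A.

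Over all heifers MKI67 varied most of the 4, but not without heifers 10 and 18. The SD of log2 CPM over 22 heifers was 0.53 for MKI67, 0.49 for TOP2A, 0.48 for BIRC5 and 0.43 for TPX2. Without heifers 10 and 18 these were 0.33, 0.33, 0.34 and 0.28. From the lowest to the highest heifer MKI67 spanned 4.23-fold, TOP2A 3.87-fold, BIRC5 3.55-fold and TPX2 3.18-fold, and without heifers 10 and 18 these spans were 2.05-fold, 2.62-fold, 2.39-fold and 1.98-fold. Ratios between the transcripts were far steadier than their levels. The ratio of MKI67 to TOP2A in CPM was 4.13 ± 0.399 (SD, n = 22), from 3.38 in heifer 9 to 4.90 in heifer 21, and that of BIRC5 to TPX2 was 0.413 ± 0.0323 (SD, n = 22), from 0.357 in heifer 20 to 0.478 in heifer 21. The ratio of MKI67 to TPX2 was 7.05 ± 0.691 (SD, n = 22), and heifers 10 (8.51) and 18 (8.39) had high values of it, heifer 10 the highest of all.

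**Figure D2:**
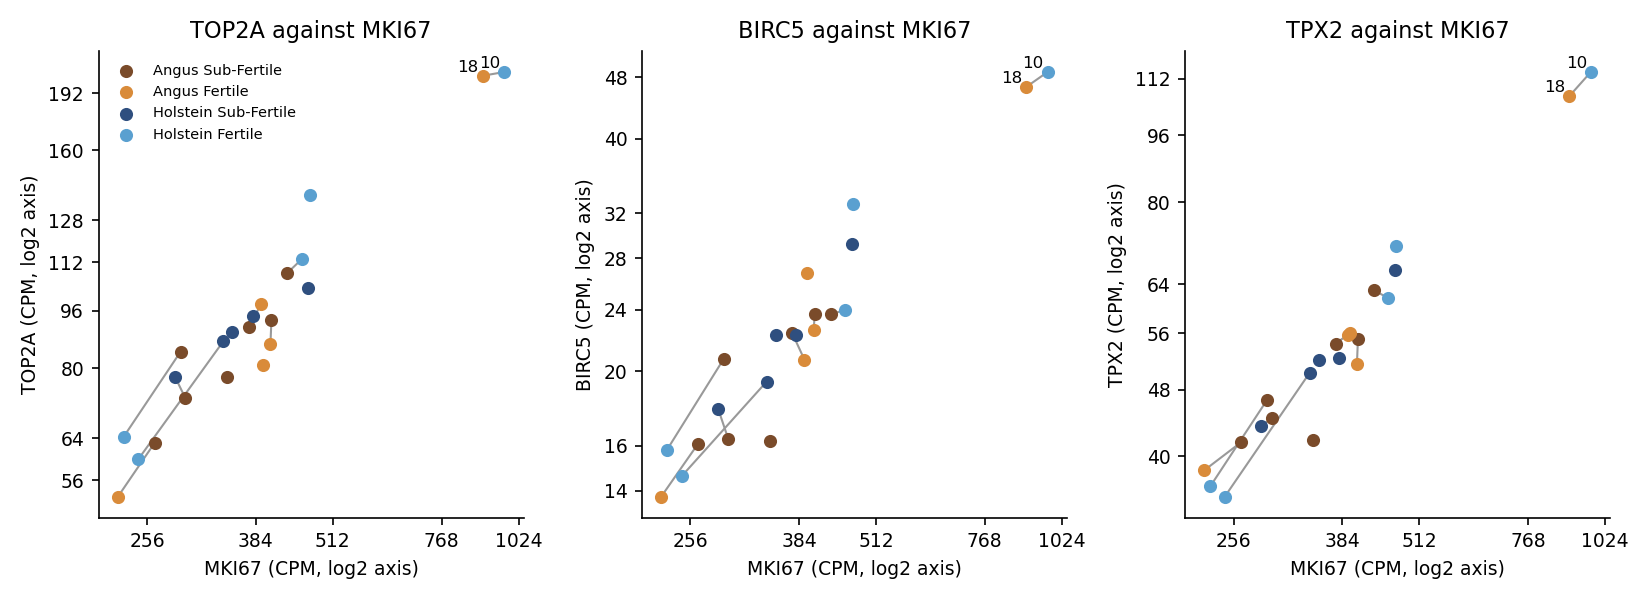
TOP2A, BIRC5 and TPX2 (CPM, y axes, log2 scale) against MKI67 (CPM, x axes, log2 scale) in the 22 heifers, coloured by group, with grey lines joining the 8 close pairs. Points follow 1 line in each panel (r of 0.965, 0.956 and 0.980 on log2 CPM, n = 22), and heifers 10 and 18 stand apart at its upper end.

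Other transcripts of cell division followed the same course. By Pearson's r of log2 CPM with the group means taken out, over 22 heifers, the named genes most like MKI67 were SPAG5, of the spindle (r = 0.983), CDCA2, of anaphase chromatin (0.979), TPX2 (0.979), HJURP, the chaperone that deposits centromeric histone (0.976), and UBE2C, the ubiquitin-conjugating enzyme of the anaphase-promoting complex (0.9749). Most like TOP2A were the kinesins KIF11 (0.977) and KIF4A (0.974), TPX2 (0.977), MKI67 (0.971) and the spindle checkpoint kinase BUB1B (0.970). Nearest to BIRC5 were the cyclins CCNB1 (0.982) and CCNA2 (0.979), the kinetochore protein SKA1 (0.977), the anaphase activator CDC20 (0.976) and securin, PTTG1 (0.976). TPX2 was matched most closely by KIF4A (0.991), CCNA2 (0.990), CDCA2 (0.985), UBE2C (0.984) and CDC20 (0.982). With heifers 10 and 18 left out of r, the r of these 20 matches lay between 0.946 and 0.986. The group means still included both heifers, so these values are not free of them. For MKI67 and TOP2A it was 0.947 in this way, against 0.915 on plain log2 CPM without these heifers.

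An r above 0.9 with MKI67 was found in 128 of the other 13534 genes, and with TPX2 in 144, BIRC5 in 120 and TOP2A in 106. Names are at hand for 1229 of the 13535 genes and for 96 of the 128 genes nearest to MKI67. The names come from the rows with small fertility p-values, so how often a gene of this kind is named is tied to the contrast that chose it.

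Lists of mitotic genes (kinetochore and centromere, passenger complex and cohesion, spindle motors and microtubule proteins, chromosome structure and condensins, and cytokinesis) held 75 genes beside the 4, of which 39 carry a name here and passed the filter. The r of these 39 with MKI67, with group means taken out over 22 heifers, had a median of 0.930 and ranged from 0.567 (CDCA5, of sister chromatid cohesion) to 0.983 (SPAG5). It was high for the spindle motors and microtubule proteins (14 named of 25, here with TPX2 counted in, median 0.961). For the kinetochore and centromere it was lower (13 named of 30, median 0.861). Some of these relations weakened with heifers 10 and 18 left out of r. The group means were still those of all 22 heifers, so these values are not free of both heifers. For CDCA5 r was 0.133, for the condensin subunit NCAPD3 it fell from 0.634 to 0.131, and for the centromere protein CENPL from 0.695 to 0.394, while for KIFC1, a kinesin that bundles spindle microtubules, it was 0.906 with and 0.840 without them. Of abundant list members, INCENP, the scaffold of the passenger complex (50.9 CPM), had an r of 0.852 (0.663 without heifers 10 and 18), and the condensin subunit NCAPG (36.3 CPM) had 0.907 (0.805).

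Paralogs that are not tied to mitosis followed another course. TOP2B, the second topoisomerase II, which acts in resting cells too, was at 349 ± 27.6 CPM (SD, n = 22), with 333 CPM in heifer 10 and 321 CPM in heifer 18, inside the range of 247 to 384.2 CPM of the other heifers. BIRC2 and BIRC3, ubiquitin ligases of the survivin family that restrain cell death signalling, were at 55.0 ± 5.92 and 370.3 ± 57.2 CPM (SD, n = 22), and heifers 10 and 18 lay inside the range of the others for both. Their r with MKI67, with group means taken out, was −0.13 for TOP2B, 0.063 for BIRC2 and −0.45 for BIRC3 over 22 heifers. These 3, of 5 listed paralogs, also carry a name because of small fertility p-values. All were lower in Fertile heifers, with a log2 fold change of −0.079 for TOP2B, −0.093 for BIRC2 and −0.14 for BIRC3. Their course in heifers 10 and 18, both Fertile, is therefore tied to the choice of rows.

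Heifers 10 and 18 shared their excess across the mitotic genes. Against the median of the other 20 heifers, MKI67 was 2.67-fold in heifer 10 and 2.46-fold in heifer 18, TOP2A 2.37-fold and 2.34-fold, BIRC5 2.27-fold and 2.17-fold, and TPX2 2.20-fold and 2.06-fold. In each of the 39 other mitotic genes both heifers were also above all 20 others, by 1.40-fold to 3.12-fold in heifer 10 and 1.46-fold to 2.80-fold in heifer 18 over the median. Among all genes tested, 6.57% had both heifers above all others and 4.07% had both below. These heifers are both Fertile and the named genes come from rows with small fertility p-values, so their count is not set against that share. Total counts of heifers 10 and 18 (38118108 and 20996745) lay within the range of the other heifers, and the r of log2 CPM with log2 total counts over 22 heifers was 0.184 for MKI67, 0.0528 for TOP2A, 0.0372 for BIRC5 and 0.123 for TPX2.

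**Figure D3:**
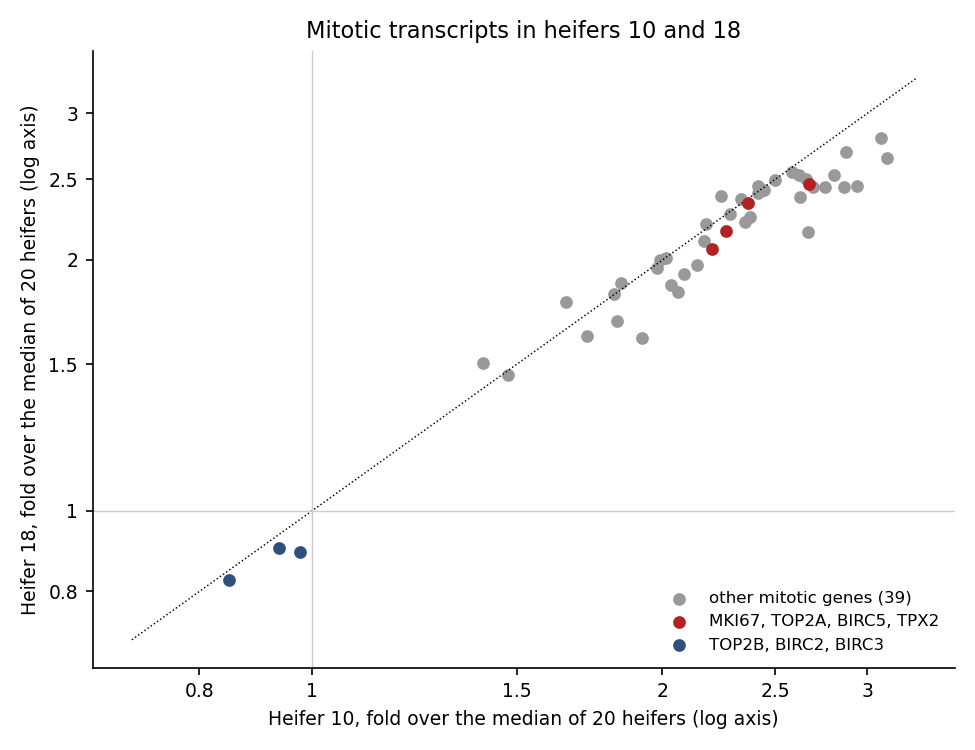
Abundance in heifer 10 (x axis) and heifer 18 (y axis), each as fold over the median of the other 20 heifers (log axes), for MKI67, TOP2A, BIRC5 and TPX2 (red), the 39 other named mitotic genes (grey) and the paralogs TOP2B, BIRC2 and BIRC3 (blue). Mitotic genes lie between 1.40-fold and 3.12-fold along the dotted line of equal folds, and the paralogs lie below 1. All genes shown carry a name because of small fertility p-values, and both heifers are Fertile.

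Marker transcripts of some blood cell types were also high or low in these heifers. The markers shown carry a name because of small fertility p-values, so their levels in these 2 Fertile heifers are tied to the choice of rows. MZB1 and XBP1, of antibody-secreting cells, were at 136 and 182 CPM in heifer 10 and at 143 and 194 CPM in heifer 18, above the highest of the other 20 heifers (123 and 154 CPM). Of the 10 plasmablast markers 4 have a name here, and their summed level was 448 CPM in heifer 10 and 466.4 CPM in heifer 18 against 269 to 439.8 CPM in the others. By group the sum ranged from 295 to 439 CPM in Angus Sub-Fertile, 346 to 466.4 in Angus Fertile, 283 to 423 in Holstein Sub-Fertile and 269 to 448 in Holstein Fertile heifers. CD38, from the same list, went the other way, with 35.5 and 33.4 CPM in heifers 10 and 18 and a median of 77.5 CPM in the others. BANK1, the 1 named of 8 markers of B cells, was at 238 and 245 CPM in heifers 10 and 18, below the 265 to 511.6 CPM of the others. The 2 named of 7 markers of eosinophils and basophils went opposite ways, CCR3 at 1.90-fold and 1.91-fold and FCER1A at 0.660-fold and 0.662-fold the median of the others in heifers 10 and 18. PROM1, the 1 named of 5 markers of blood progenitors, was at 2.53-fold and 2.69-fold, at a level of 3.49 and 3.71 CPM against 0.258 to 3.87 CPM in the others. Of the platelet markers (2 named of 7), GP9 was at 2.37-fold and 2.05-fold and ITGA2B at 1.35-fold and 1.31-fold, and their summed level of 62.2 and 59.9 CPM lay within the range of the others (33.1 to 73.1 CPM). Summed CSF3R, MMP9 and TGM3 of neutrophils (3 named of 8) were at 260.5 and 241 CPM, within the range of the others (118 to 650.3 CPM). The part of these cell types in the levels of the mitotic genes was not tested, and in bulk RNA a larger number of dividing cells and more RNA of these genes per cell cannot be told apart.

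The close pairs were mostly alike in these transcripts. The absolute difference of log2 CPM within the 8 pairs had a median of 0.097 for MKI67, 0.11 for TOP2A, 0.12 for BIRC5 and 0.098 for TPX2, against 0.45, 0.43, 0.47 and 0.36 over the other 223 pairings. The 4 genes were among the 7746 that measured closeness, so this is a description. Heifers 10 and 18 differed by 0.12 for MKI67 and 0.018 for TOP2A. Heifers 5 and 6, a Sub-Fertile and a Fertile Holstein heifer, differed most, by 0.46 for MKI67 (340.2 against 248 CPM) and 0.54 for TOP2A (87.1 against 59.8 CPM). Heifers 7 and 16 differed by 0.31 for MKI67 (235 against 290.2 CPM) and heifers 14 and 20 by 0.20 (263 against 229.7 CPM), and in each of these 3 pairs the Sub-Fertile heifer had more of all 4 transcripts.

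Whether transcript abundance differed with fertility was the question of the study, and it is this contrast that chose the 4 genes. With breed in the model, Fertile heifers exceeded Sub-Fertile ones on the log2 scale by a fold change of 0.41 (standard error 0.22) for MKI67, 0.33 (standard error 0.20) for TOP2A, 0.35 (standard error 0.20) for BIRC5 and 0.30 (standard error 0.18) for TPX2. No p-value is given for them, because the contrast chose the genes. As the background of this contrast, 0% of all genes had an adjusted p under 0.05 (0 genes by edgeR and 0 by DESeq2). Without adjustment, edgeR put 354 genes under 0.05, 2.62% of all (1.66% with the higher level in Fertile heifers), and DESeq2 put 529 there.

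The fertility difference rested on heifers 10 and 18. Both are Fertile and have the highest values of the 4 genes, so leaving them out must lower it. Without heifer 10 the log2 fold change was 0.23 for MKI67, 0.20 for TOP2A, 0.21 for BIRC5 and 0.16 for TPX2, and without heifer 18 it was 0.22, 0.14, 0.18 and 0.15. With both left out it was 0.0024 for MKI67, −0.019 for TOP2A, 0.025 for BIRC5 and −0.0079 for TPX2. With any 1 of the 22 heifers left out the difference stayed above 0. It spanned 0.22 to 0.49 for MKI67, 0.14 to 0.42 for TOP2A, 0.18 to 0.43 for BIRC5 and 0.15 to 0.36 for TPX2. In CPM, MKI67 had means of 463 ± 252 (SD, n = 5) in Angus Fertile and 344 ± 63.9 (SD, n = 7) in Angus Sub-Fertile heifers, and of 476 ± 298 (SD, n = 5) in Holstein Fertile and 365 ± 67.2 (SD, n = 5) in Holstein Sub-Fertile heifers. Without the pair, the means of the Fertile groups were 356 ± 84.1 (SD, n = 4) in Angus and 352 ± 128 (SD, n = 4) in Holstein heifers. The median of the 39 other mitotic genes was 0.35, with all 39 above 0, as the choice of the rows largely fixed, and the median over all genes tested was −0.0020.

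In the 6 close pairs that mixed the fertility classes the Sub-Fertile heifer mostly had the higher level. MKI67 was higher in the Fertile heifer of 2 pairs, TOP2A of 2, BIRC5 of 1 and TPX2 of 1, and the median difference of log2 CPM was −0.10, −0.18, −0.17 and −0.11. With the close pairs as blocks in the model across all genes, the fertility difference on the log2 scale was −0.15 for MKI67, −0.19 for TOP2A, −0.20 for BIRC5 and −0.16 for TPX2. Heifers 10 and 18, both Fertile, enter that model as a pair of 2 breeds.

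**Figure D4:**
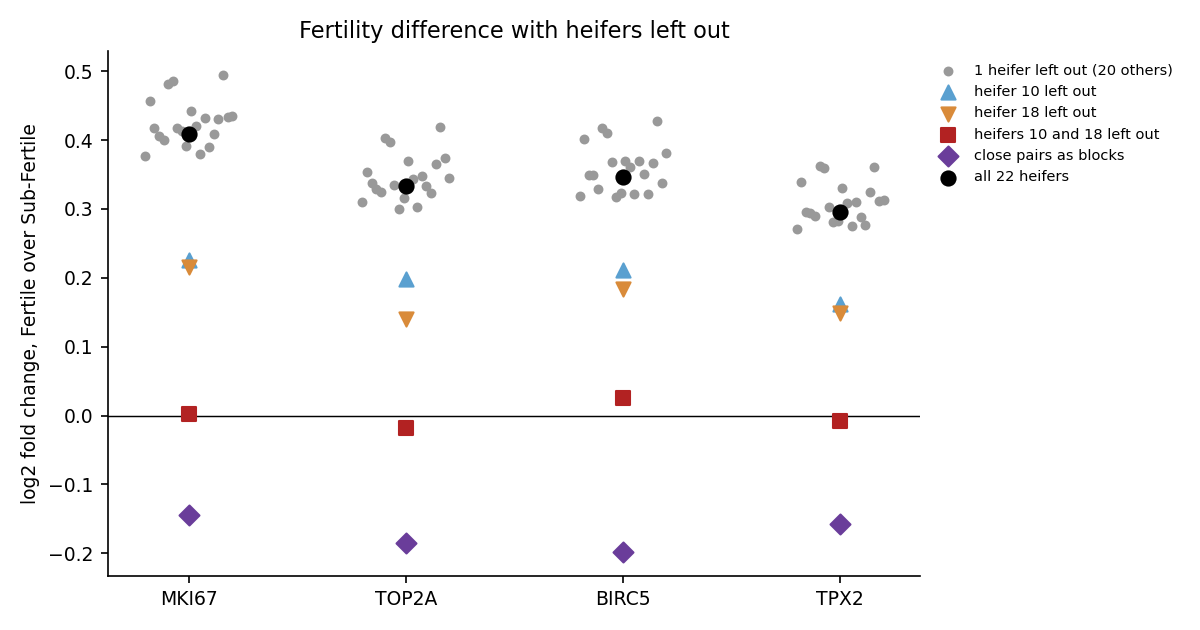
Fertility difference on the log2 scale, Fertile minus Sub-Fertile (y axis), of the 4 genes (x axis) in all 22 heifers (black), with 1 heifer left out (grey, or triangles for heifers 10 and 18), with both of these left out (red squares) and with the close pairs as blocks (purple diamonds). Values are 0.30 to 0.41 in all heifers, between −0.019 and 0.025 without heifers 10 and 18, and −0.20 to −0.15 with blocks.

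Breed took no part in the choice of the genes and could be tested, although age, the days of progesterone and management differ with breed and cannot be told apart from it. Holstein and Angus heifers had means that differed by less than the spread between heifers, of 420.2 ± 212 (SD, n = 10) and 394 ± 171 CPM (SD, n = 12) for MKI67, 103 ± 42.7 and 92.7 ± 37.8 CPM for TOP2A, 24.7 ± 10.2 and 22.5 ± 8.55 CPM for BIRC5, and 58.4 ± 22.8 and 54.6 ± 17.98 CPM for TPX2. The log2 fold change of Holstein over Angus, with fertility in the model, was 0.064 (95% interval −0.39 to 0.52) for MKI67, 0.13 (−0.29 to 0.55) for TOP2A, 0.12 (−0.29 to 0.54) for BIRC5 and 0.079 (−0.29 to 0.45) for TPX2. By the edgeR quasi-likelihood test with Benjamini-Hochberg adjustment over 13535 genes, the adjusted p was 0.929, 0.830, 0.834 and 0.885. None of the 4 passed (0 genes), where 0% of all genes did at an adjusted p under 0.05 and 10.6% (1440 genes) had an unadjusted p under 0.05, 4.56% with the higher level in Holstein heifers. DESeq2 gave 10 genes at an adjusted p under 0.05, and 1751 unadjusted. For MKI67 the interval held folds between 0.761 and 1.44.

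Permuting breed labels within the fertility groups (199584 regroupings) gave exact permutation p-values, two-sided, of 0.869 for MKI67, 0.553 for TOP2A, 0.642 for BIRC5 and 0.787 for TPX2, or 0.869 for each after Benjamini-Hochberg adjustment over the 4 genes. Like the edgeR test, the permutation takes heifers as independent, which the close pairs are not. Without heifers 10 and 18 these exact permutation p-values were between 0.379 and 0.852, over 55440 regroupings. Single heifers set the direction. Without heifer 10 the breed difference was −0.12 for MKI67, −0.0044 for TOP2A, −0.011 for BIRC5 and −0.057 for TPX2, and without heifer 18 it was 0.23, 0.30, 0.26 and 0.21. In the 4 close pairs of 2 breeds MKI67 was higher in the Holstein heifer of 2, and with the pairs as blocks the breed difference was 0.033 for MKI67, 0.047 for TOP2A, 0.067 for BIRC5 and 0.017 for TPX2.

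Ratios between the 4 transcripts did not pass a breed test either. The largest difference was that of MKI67 to TOP2A, at 3.99 ± 0.403 (SD, n = 10) in Holstein and 4.24 ± 0.375 (SD, n = 12) in Angus heifers, with an exact permutation p of 0.131 (two-sided) and 0.479 after adjustment over 6 ratios. Without heifers 10 and 18 the exact permutation p was 0.0789 and the adjusted value 0.308. Of the 39 other named mitotic genes 0 had an unadjusted breed p under 0.05 by edgeR, where 10.6% of all genes did. Their median log2 fold change of Holstein over Angus was 0.081, with 36 of 39 above 0, against a median of −0.013 over all genes tested, of which 45.9% lay above 0. Since these genes move together from heifer to heifer, the 36 are not separate observations.

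Whether the fertility difference depended on breed was tested as an interaction, and none of the 4 genes (0 genes) passed. On the log2 scale, the difference in Holstein heifers minus that in Angus heifers was −0.046 (95% interval −0.99 to 0.90) for MKI67, 0.060 (−0.81 to 0.93) for TOP2A, −0.087 (−0.94 to 0.76) for BIRC5 and −0.037 (−0.81 to 0.73) for TPX2. The adjusted p was 0.979, 0.968, 0.950 and 0.979 by the edgeR quasi-likelihood test with Benjamini-Hochberg adjustment. Over all genes 0% passed (0 genes, and 0 by DESeq2), and 10.4% (1408 genes) had an unadjusted p under 0.05, 5.55% with the larger Fertile excess in Holstein heifers. The intervals are wide, and 1 heifer moved the value far, to −0.48 for MKI67 without heifer 10 and to 0.34 without heifer 18. With both left out it was −0.099 for MKI67 and 0.14 for TOP2A.

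**Figure D5:**
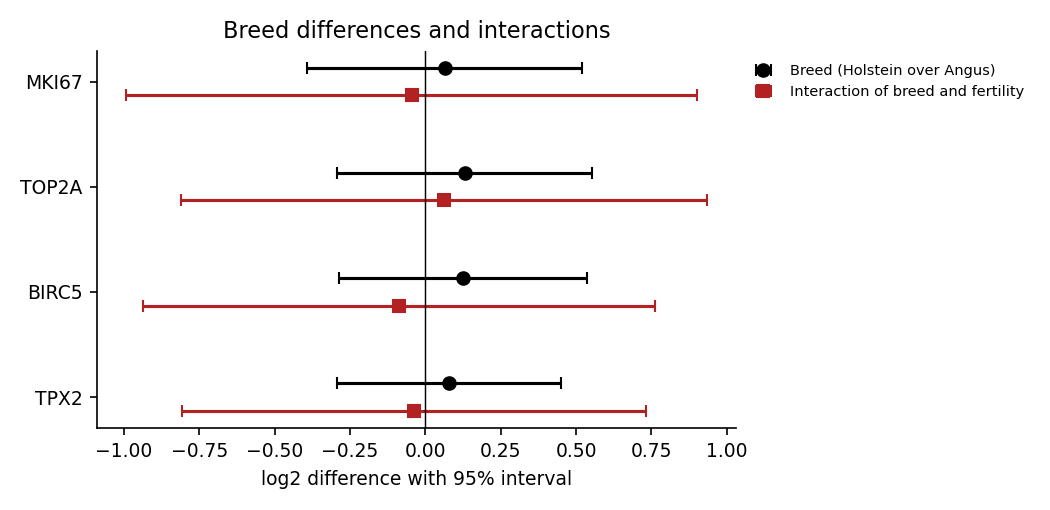
Log2 difference (x axis) of Holstein over Angus heifers (black) and of the interaction of breed and fertility (red) for the 4 genes (y axis), with 95% intervals from the edgeR fit over 22 heifers. All intervals include 0, and those of the interaction reach from about −0.99 to 0.93.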

How the data were processed

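The authors aligned reads to ARS-UCD1.2 with hisat2, cleared them of duplicates (biobambam2) and of unmapped or secondary alignments (Samtools), and counted fragments per gene of Ensembl release 105 with featureCounts. The submitters' processing notes name HISAT2 and SAMtools without versions. The deposited values are raw counts without normalization, and total counts per heifer set the precision given in the report.

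As in the authors' code, genes stayed in if CPM after TMM scaling exceeded 1 in 5 heifers or more. Their filters on FPKM and biotype were not applied. Under R 4.3.3, edgeR 4.0.16 ran its quasi-likelihood test over 22 heifers with breed plus fertility as the model and robust estimation. In that fit the size of a library was its total over the genes that passed the filter, while CPM used the total over all genes. Its p-values were adjusted by Benjamini-Hochberg over 13535 genes (over the genes kept, under other filters). The standard error is the log2 fold change divided by the square root of F. The interaction came from a further model with that term, and DESeq2 1.42.0 gave the Wald test as an alternative. Permutation tests were exact (Python 3.11.15, numpy 2.4.6), adjusted over 4 genes or 6 ratios. Only the edgeR fit was tested on simulated counts with known changes, drawn independently for each heifer and so without close pairs. The permutation tests, correlations and close pairs were not covered. Correlations used log2 CPM with a prior count of 2, or plain log2 CPM between the 4 genes.

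A close pair is 2 heifers that are mutual nearest neighbours, with a coefficient of variation over genes with a mean CPM above 20 under 0.5 of the median. Symbols, positions and transcript lengths came from the annotation columns of 1401 rows of the supplementary results, whose own test columns were not used. Genes named in the text are the 4 genes, the most abundant or, after their values were seen, the lowest correlated members of the lists, the 5 named genes most like each, paralogs and markers. Members, lists, tests and the heifers left out were chosen with earlier results of these data known. Each p-value measures the spread between heifers taken as independent, although close pairs are not.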

Additional observations from a re-analysis of the deposited data

Results flagged for a closer look

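In Angus Fertile heifers, heifer 18 lay far from its group for MKI67 (895 CPM) and for TPX2 (107 CPM). The gap to the next heifer was 0.736 and 0.744 of the group's whole range, above Dixon's critical value of 0.710 for 5 samples. These were 2 flags over 16 combinations of gene and group. Chance flags about 1 in 20 where the values took no part in choosing the genes. Here the contrast of Fertile and Sub-Fertile heifers chose them, so that rate does not apply and the flags are a description. Heifer 10, with higher values still, was not set apart by this criterion because Holstein Fertile heifers spread more widely. The 4 genes are not independent of each other.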

How the results depend on the processing

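Adjusted counts of genes for fertility and for the interaction were 0 under each alternative run, and for breed 0 under each but DESeq2, which gave 10. Breed and interaction results of the 4 genes stayed above the threshold under each alternative run. Leaving out 1 heifer, the breed difference (log2) ranged from −0.12 to 0.23 for MKI67, −0.0044 to 0.30 for TOP2A, −0.011 to 0.26 for BIRC5 and −0.057 to 0.21 for TPX2, and the interaction from −0.48 to 0.34, −0.25 to 0.45, −0.41 to 0.23 and −0.36 to 0.25. In each case the low end was without heifer 10 and the high end without heifer 18. The fertility difference changed sign with close pairs as blocks (MKI67 −0.15, TOP2A −0.19, BIRC5 −0.20, TPX2 −0.16), and without heifers 10 and 18 for TOP2A (−0.019) and TPX2 (−0.0079). TMM factors, filters, DESeq2, estimation that was not robust and the model without breed left it between 0.30 and 0.42. The cause was not tested.

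Genes at an unadjusted p under 0.05 for fertility numbered 354, but 639 with blocks, 125 without heifers 10 and 18, 750 without a filter, and 142, 187, 225, 534 and 580 without heifers 10, 18, 3, 21 and 22. For breed, 1440 became 233 with blocks and 2191 without heifer 1, and for the interaction, 1408 became 2343 without heifers 10 and 18. Blocks compare fertility within 6 pairs and breed within 4. Depth limits BIRC5 most, at 196 counts in 1 heifer.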

Other observations

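Transcription factors that act in dividing cells, on a list of their own, lay with the 4 mitotic genes. MYBL2, FOXM1, E2F1 and E2F8, 4 named of 7, had means of 48.3, 9.90, 19.4 and 12.2 CPM, and their r with MKI67, with group means taken out over 22 heifers, was 0.955, 0.967, 0.894 and 0.964. With heifers 10 and 18 left out of r, but not of the group means, it was 0.908, 0.929, 0.789 and 0.926. Against the median of the other 20 heifers, E2F8, a repressor of cell cycle genes, was 2.92-fold in heifer 10 and 2.85-fold in heifer 18, and FOXM1, an activator of mitotic genes, was 2.82-fold and 2.59-fold. None of the 4 (0 genes) had an unadjusted breed p under 0.05 by edgeR, beside 10.6% of all genes tested. These genes, too, carry a name because of small fertility p-values.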
